A study of Mus musculus with 9 samples.

Results

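Brainstem neurons were taken as the cells of libraries 7, 8 and 9, numbered in the order of the deposited table, in which Snap25, Syt1, Stmn2 and Snhg11 together gave 2 or more UMIs (unique molecular identifiers, each standing for 1 captured transcript). The rule chose 421 of the 10963 cells in these libraries, and the whole table held 29571 cells. It chose 116 cells in library 7, 146 in library 8 and 159 in library 9. Snap25 and Syt1 encode the membrane fusion protein and the calcium sensor of transmitter release, Stmn2 encodes a microtubule regulator of axons, and Snhg11 is a long non-coding RNA abundant in neurons.

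The study asked how sleep need changes gene expression in cells of the brainstem, cortex and hypothalamus of wild-type male C57BL/6 mice (C57BL/6J in the methods) aged 9 to 11 weeks. Its brainstem samples were normal sleep (NS), sleep deprivation (SD) for 12 h, and recovery sleep (RS) after that deprivation, all collected at zeitgeber time 12, when the lights went off. The methods give 24 h of recovery and the labels give 12 h in 1 place. Each library held dissections pooled from 3 mice, dissociated with papain and depleted of myelin debris on beads, with 1 library per region and sleep group. No replicate exists, so no test was made, and every interval is a 95% interval that covers counting error only, not the spread between mice or between cells.

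Library 7 was identified as brainstem NS, because all 1999 cell barcodes at hand that are listed for that sample occurred in it, against 5 to 13 in each of the other 8 libraries. Libraries 8 and 9 were taken as brainstem from their place in the table. Which of them is SD and which is RS was not assigned here. Their values are therefore given side by side, and no direction with sleep is drawn from them.

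Neurons signal by releasing transmitter from vesicles, and the transporter that fills the vesicle tells which transmitter it is. Slc17a6 encodes VGLUT2, the vesicular glutamate transporter that prevails in brainstem, thalamus and hypothalamus, whereas Slc17a7 (VGLUT1) prevails in cortex and in cerebellar granule cells. Gad1 and Gad2 encode the enzymes that make GABA, and Slc32a1 encodes the vesicular transporter shared by GABA and glycine. The brainstem also holds scattered groups of cholinergic, serotonergic, noradrenergic and peptidergic neurons, several of which act in arousal and sleep.

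The 9 libraries held 2575 to 3916 cells each, with 402 to 1055 median UMIs per cell and 1522766 to 5488950 UMIs in all. The chosen cells were 3.11% of library 7 (95% Clopper-Pearson interval 2.58 to 3.72%), 4.15% of library 8 (3.51 to 4.86%) and 4.28% of library 9 (3.65 to 4.98%). Their median depth was 1126.5, 1018.5 and 1306 UMIs in libraries 7, 8 and 9, above the 914, 738 and 1008.5 UMIs of the other cells. Few barcodes were shared with another library, 4, 6 and 5 of the chosen cells in libraries 7, 8 and 9. The choroid plexus markers stood apart in library 9, at 28914 CPM (counts per 1000000 UMIs) in the other cells, against 183 CPM in library 7 and 61.4 CPM in library 8.

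Position genes, which the rule did not use, separated libraries 7 to 9 from the rest of the table. The Hox genes mark the hindbrain and spinal cord in an order along the body axis, and En1 and En2 mark the midbrain and anterior hindbrain. Outside the chosen cells, a Hox transcript was found in 3.07% of cells in library 7, 0.534% in library 8 and 3.32% in library 9, and in at most 0.136% in each of libraries 1 to 6. En1 or En2 was found in 0.138%, 1.33% and 1.29% of these cells in libraries 7, 8 and 9 and in none of those in libraries 1 to 6. Library 8 was thus low in Hox genes and library 7 was low in En1 and En2. In the chosen cells, a transcript of any of the 15 Hox genes was found in 5 of 116, 6 of 146 and 25 of 159 cells, and En1 or En2 in 2, 18 and 12 cells, so library 9 was highest for the former and library 7 lowest for the latter. In library 7 the Hox transcripts of other cells were most frequent among cells led by markers of ependymocytes (the ciliated cells that line the ventricles), 15.5%, against 0 of 268 such cells in library 8 and 6.45% in library 9. In library 9 they were most frequent in astrocyte marker cells, 7.75%. Among 18 forebrain genes, 6 or fewer gave a UMI in the chosen cells of any of the 3 libraries, and Nkx2-1, Sim1, Dlx1, Dlx2 and Dlx5 were at 0 in all 3. Lamp5, a membrane protein of interneurons and other neurons, gave most of the forebrain UMIs, 19, 14 and 22 in libraries 7, 8 and 9, of which 10 of the 14 in library 8 came from 1 cell. Any of the 18 was found in 9.48%, 2.74% and 13.8% of the chosen cells and in 0.609%, 0.652% and 1.04% of the other cells, and Neurod2, a transcription factor of excitatory neurons, gave 1, 1 and 9 UMIs.

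**Figure D1:**
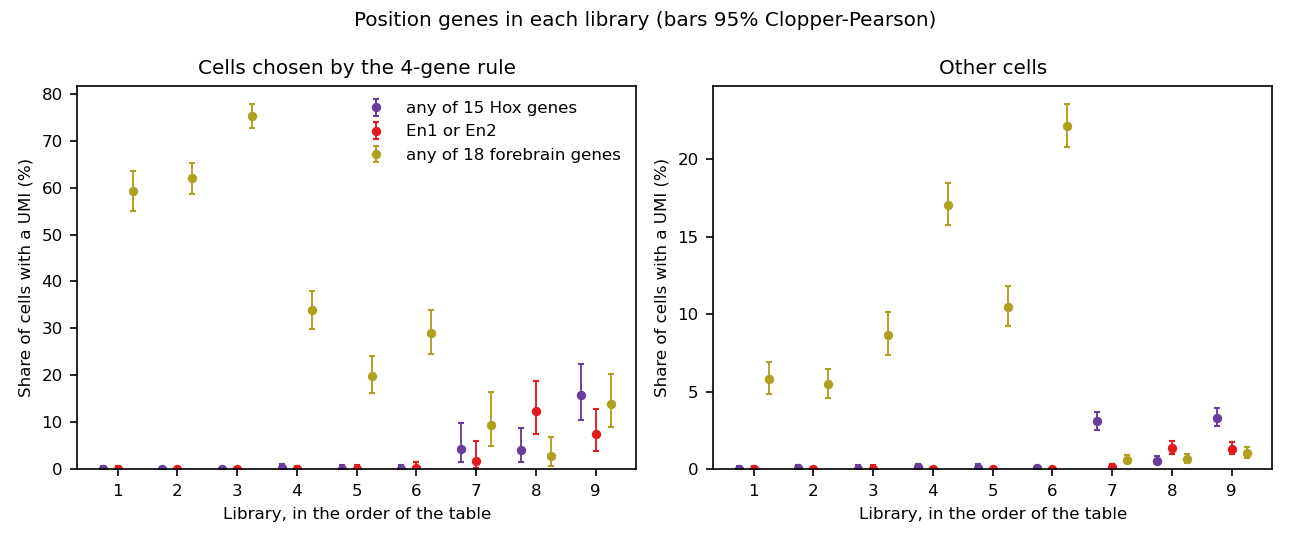
Share of cells with a UMI of any Hox gene, of En1 or En2, or of any of 18 forebrain genes, in each of the 9 libraries, for cells chosen by the same 4-gene rule (left) and for the other cells (right, on a smaller scale), with 95% Clopper-Pearson bars. Hox and engrailed transcripts appear in libraries 7 to 9, and the forebrain list is highest in the chosen cells of libraries 1 to 3.

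The chosen cells were a mixture. The 12 neuron markers were the 4 rule genes, Slc17a6, Meg3, Rtn1, Nefl, Uchl1, Map1b, Stmn3 and Syp, without Gad1, Gad2 or Slc32a1. Any choice of cells on these markers favours the 12 genes themselves. A cell was called neuron-led when its UMIs of the 12 exceeded those of each of 13 other marker classes. That held for 78 of 116 cells in library 7 (67.2%), 109 of 146 in library 8 (74.7%) and 96 of 159 in library 9 (60.4%). Of the remainder, 20, 18 and 26 cells in libraries 7, 8 and 9 were led by endothelial markers, the most frequent other class. Summed endothelial markers stood at 3462, 2175 and 2725 CPM in the chosen cells and at 763, 574 and 818 CPM in the neuron-led cells, against 5962, 5105 and 4204 CPM in the other cells of the same libraries. All 8 endothelial markers were found in the chosen cells of each library, and so were all 8 microglia markers, at 2101, 1313 and 1738 CPM against 11440.0, 7785 and 4937 CPM in the other cells. Hemoglobin and erythroid markers were at 5214, 2548 and 11282 CPM in the chosen cells, against 71057, 34357 and 50454 CPM in the others. Of 6 oligodendrocyte markers, 4, 3 and 3 gave a UMI in the chosen cells, and their summed level of 66.9, 47.2 and 41.3 CPM was close to the 55.0, 49.9 and 44.0 CPM of the other cells. The part of these transcripts in the gene levels below was not tested, except where a value for neuron-led cells is given.

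**Figure D2:**
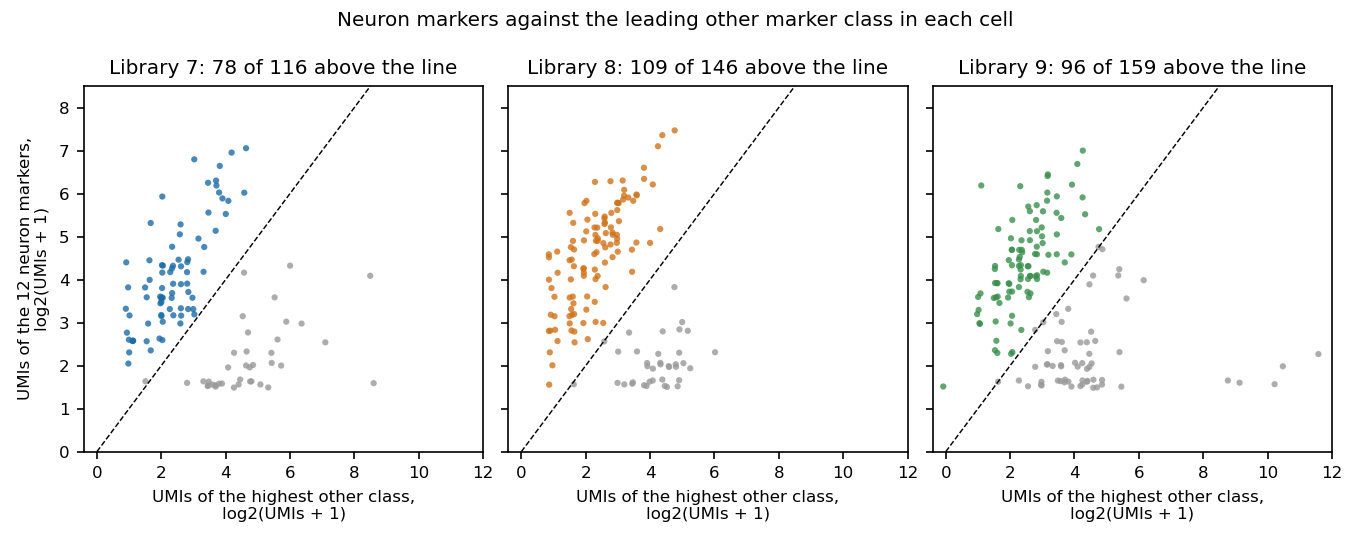
Each point is a chosen cell, placed by its UMIs of 12 neuron markers (vertical) and of whichever of 13 other marker classes was highest in it (horizontal), both as log2(UMIs + 1), with points shifted by up to 0.2 UMI so that they do not hide each other. Coloured points above the line are the neuron-led cells, 78, 109 and 96 in libraries 7, 8 and 9, and grey points are the others.

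Just inside the threshold, 40, 51 and 63 cells of libraries 7, 8 and 9 had exactly 2 UMIs of the rule genes, and 15, 24 and 20 of them were neuron-led. Just outside it, 280, 242 and 273 cells had exactly 1 UMI, and 23, 19 and 13 of them had neuron markers above every other class. Of the cells with 3 or more UMIs, 63 of 76, 85 of 95 and 76 of 96 were neuron-led. The rule genes are among the neuron markers, so this rise with their UMIs is in part built in. The long non-coding RNA Meg3, which was outside the rule, followed the same steps in library 7, where it was found in 11.1% of cells at 1 UMI, 22.5% at 2 UMIs and 50% at 3 or more. In libraries 8 and 9 it was found in 81.1% and 85.4% of cells at 3 or more UMIs. Snap25 was found in 52.6%, 61.6% and 57.2% of the chosen cells and Syt1 in 43.1%, 44.5% and 38.4%, so no single rule gene was detected in every cell.

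Cells with Slc17a6 and cells with an inhibitory gene were almost separate. Slc17a6 was found in 17 of 116 chosen cells in library 7 (14.7%, interval 8.78 to 22.4%), in 38 of 146 in library 8 (26.0%, 19.1 to 33.9%) and in 29 of 159 in library 9 (18.2%, 12.6 to 25.1%). At least 1 of Gad1, Gad2 and Slc32a1 was found in 25 cells of library 7 (21.6%, 14.5 to 30.1%), 20 of library 8 (13.7%, 8.57 to 20.4%) and 24 of library 9 (15.1%, 9.92 to 21.6%). Both kinds were found together in 1, 0 and 1 cells. By a floor of 3 counts, the 0 allows both to be detected in up to 2.05% of cells. It does not limit the share of cells that express both, since detection falls with depth. Library 7 thus had more inhibitory than Slc17a6 cells and libraries 8 and 9 had fewer, although the intervals of the 3 libraries overlapped for each class and the order within libraries 8 and 9 turned at equal depth. A cell counted as inhibitory by any of 3 genes but as a Slc17a6 cell by 1 gene only, so the shares of the classes are not measured alike.

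These shares were far above the background of the droplets. In microglia marker cells, which should lack all 4 genes, Slc17a6 was found in 0.389%, 0.248% and 0.161% of cells in libraries 7, 8 and 9, at median depths of 810, 628.5 and 900.5 UMIs. An inhibitory gene was found in 0.583%, 0.496% and 0.161% of them. In endothelial marker cells, Slc17a6 was found in 0.311%, 0.38% and 0.421%.

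When each cell was thinned to 500 UMIs, the Slc17a6 shares became 8.62%, 9.63% and 5.66% in libraries 7, 8 and 9, and the inhibitory shares 17.2%, 10.4% and 10.7%. Thinning left out 11 cells of library 8 and no chosen cell of the other 2 libraries. At equal depth the inhibitory share was the higher of the 2 in each library, the intervals of the libraries overlapped for both classes, and no order is read from the shares. Among neuron-led cells, without thinning, Slc17a6 was found in 16 of 78, 37 of 109 and 28 of 96 cells and an inhibitory gene in 23, 19 and 17 cells. Slc17a6 is itself a neuron marker, so the choice of neuron-led cells favours it.

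**Figure D3:**
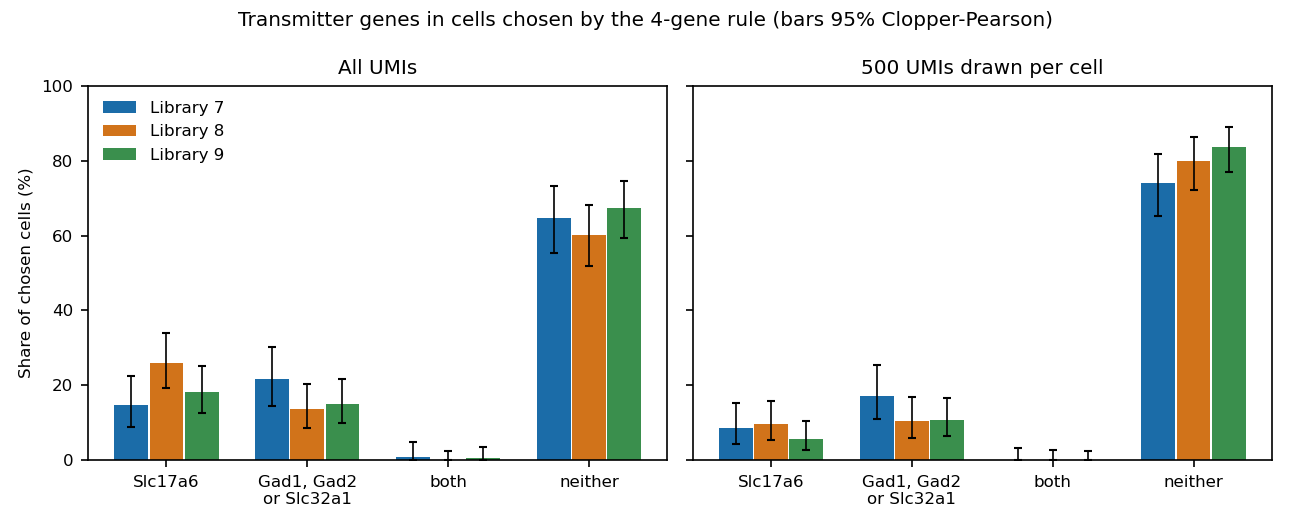
Share of the chosen cells with Slc17a6, with Gad1, Gad2 or Slc32a1, with both and with neither in libraries 7, 8 and 9, from all UMIs (left) and after 500 UMIs were drawn from each cell (right), with 95% Clopper-Pearson bars. The cells with neither are the most frequent in each library, and thinning lowers the Slc17a6 share of library 8 from 26.0% to 9.63%.

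Most chosen cells showed neither kind of gene, 75, 88 and 107 cells in libraries 7, 8 and 9. Their median depth was 883.5 UMIs in library 8 and 1103 UMIs in library 9, below the 1452.5 and 1868 UMIs of the Slc17a6 cells there, whereas in library 7 the 2 medians were close, 1122 and 1188 UMIs. Over the 3 libraries, 145 of the 270 cells with neither were neuron-led, against 79 of the 82 cells with Slc17a6 alone and 57 of the 67 with an inhibitory gene alone. Slc17a6 is 1 of the 12 neuron markers and the inhibitory genes are not, so this contrast is in part built in. Slc17a7 was found in 6, 9 and 14 chosen cells. It was the transporter of most chosen cells in libraries 1 to 3, where 69.6%, 66.9% and 80.3% of the cells taken by the same rule carried it, and it was found in 1, 0 and 0 cells of libraries 4, 5 and 6. Slc17a8, which encodes VGLUT3, was found in 1, 1 and 0 cells.

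Slc17a6 stood at 172 CPM in the chosen cells of library 7 (exact Poisson interval 120 to 238), 330 CPM in library 8 (261 to 413) and 184 CPM in library 9 (136 to 243), against 7.55, 4.05 and 4.56 CPM in the other cells. Library 8 was the highest, with an interval above those of the other 2. In neuron-led cells, chosen in part on Slc17a6 itself, the levels were closer, 312, 415 and 291 CPM. Gad1 stood at 158, 85.8 and 143 CPM, Gad2 at 81.2, 103 and 71.3 CPM and Slc32a1 at 191, 112 and 105 CPM. For each of these 3 genes the intervals of the libraries overlapped. Slc6a5, the glycine transporter of glycinergic terminals, was found in 2, 2 and 5 chosen cells, 7 of which were also inhibitory by the other genes and none of which carried Slc17a6. Glra1 and Glrb, subunits of the glycine receptor, were found in 8, 4 and 5 cells and in 37, 49 and 41 cells of libraries 7, 8 and 9.

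Against the other cells of the same library, the chosen cells were higher in most listed genes of synapses, channels, receptors and the axon. The ratio of CPM + 10 was taken for each gene with 5 or more UMIs in the chosen cells or an equal level in the others. Because the rule chose the cells on 4 neuronal genes of the same profiles, these ratios describe the cells and test nothing. At least 2-fold higher levels were seen in 24.7% of 7777 genes in library 7, 28.2% of 8561 in library 8 and 19.5% of 8416 in library 9. At least 2-fold lower levels were seen in 8.14%, 11.9% and 6.7% of them. These shares of all genes are the background for every list below. The lower share was larger without cells led by another class, at 1196 of 5195, 1465 of 7768 and 1068 of 6609 genes. The median log2 ratio over all genes was 0.34, 0.37 and 0.27, so values near these sit at the centre of the library. In library 7, 75.2% of the genes past 2-fold were higher ones, and this share was 61.4%, with a median log2 ratio of 0.08, when each cell was given equal weight. Against this background, 3 of 4 glutamate transmitter genes that passed the filter in each library, and 4 of 5, 4 of 5 and 4 of 6 genes of GABA and glycine, were at least 2-fold higher.

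Outside the rule genes, Meg3 led the ranking in library 7. It is an imprinted long non-coding RNA of neurons and endocrine cells. It gave 828, 1618 and 1302 UMIs in 47, 92 and 99 chosen cells of libraries 7, 8 and 9, which is 3954, 6942 and 4886 CPM, against 81.7, 131 and 103 CPM in the other cells. The log2 ratios were 5.43, 5.63 and 5.44. In neuron-led cells, chosen in part on Meg3 itself, the levels were 7417, 8769 and 7502 CPM.

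The sequence before the Meg3 start is shown because Meg3 had the largest ratio in library 7 among the leading genes, the 4 rule genes set aside. It is the 250 bases upstream of the first of 2 RefSeq starts, at chr12:109540746-109540995 on the plus strand of GRCm38.p6, with matches to the cyclic AMP response element TGACGTCA and to TATAAA, on either strand, in capitals. The 2 TATAAA matches, 1 on each strand, overlap and run together.
Meg3 upstream: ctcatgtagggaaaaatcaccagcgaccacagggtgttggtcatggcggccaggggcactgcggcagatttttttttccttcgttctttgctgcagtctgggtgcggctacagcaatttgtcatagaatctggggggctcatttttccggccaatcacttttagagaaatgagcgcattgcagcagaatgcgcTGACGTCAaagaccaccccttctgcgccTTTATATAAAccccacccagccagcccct
The first base of TGACGTCA lies 57 bases before the start. The same letters were found in 1.55% of 32851 RefSeq upstream windows of this length, and in those of Meg3, Chgb and Scg2 among the 19 leading genes that had a window. TATAAA was found in 12.4% of all windows. A match of letters is a description and not evidence of a bound factor.

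Beside Meg3, the leading genes of library 7 included Dnm1 (dynamin of synaptic vesicle endocytosis), Sncb, Ndrg4, Slc12a5 (the potassium chloride cotransporter that sets the inhibitory effect of GABA), Chgb, Scn1a, Vsnl1, Vstm2l, Spock1, Scg2, Nrxn3, Bex2, Stmn3, Camk2b, Gad1, Ncdn, Spock3, Thy1, Syp, Resp18 and Faim2. The log2 ratios of the 25 leading genes in library 7 lay between 3.84 and 5.43. All 25 were also at least 2-fold higher in libraries 8 and 9. Slc12a5 was found in 45, 54 and 45 chosen cells at 401, 420 and 368 CPM, against 11.6, 12.5 and 9.98 CPM in the others, and its intervals overlapped between the libraries.

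Of 30 pan-neuronal genes outside the rule, 29 were at least 2-fold higher in library 7, 30 in library 8 and 29 in library 9, with median log2 ratios of 3.15, 3.84 and 3.45. The exception in library 9 was Cplx2, the fusion regulator complexin 2, at 93.8 CPM against 49.7 CPM (log2 ratio 0.80).

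Of 20 genes of synaptic vesicles and release, 19 in each library were at least 2-fold higher, over 20, 19 and 20 that passed the filter. Syp, which encodes synaptophysin, was found in 65, 72 and 53 cells at 850, 905 and 473 CPM, and its level in library 9 lay below the intervals of the other 2. All 19 voltage-gated channel genes in the table were at least 2-fold higher in each of the 3 libraries, with median log2 ratios of 2.60, 2.81 and 2.53. Scn1a, the sodium channel of fast-firing cells, stood at 253, 257 and 143 CPM against 4.25, 4.67 and 6.94 CPM in the other cells.

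Among 26 transmitter receptor genes, 22 of the 22 that passed the filter in library 7 were at least 2-fold higher, 21 of 22 in library 8 and 18 of 21 in library 9. Gria2, the AMPA receptor subunit that limits calcium entry, stood at 554, 1463 and 811 CPM, and no 2 intervals overlapped. In neuron-led cells Gria2 stood at 1048, 1842 and 1011 CPM, so library 8 was again the highest and libraries 7 and 9 were alike. Htr2c, a serotonin receptor that choroid plexus also expresses, had log2 ratios of 3.04, 3.73 and 0.91, and in library 9 the other cells stood at 45.1 CPM, against 4.01 and 4.99 CPM in libraries 7 and 8. Of 22 axon and cytoskeleton genes, 19, 19 and 20 were at least 2-fold higher. The members that were not included Tuba1a, which many cell types express, with log2 ratios of 0.73, 0.10 and -0.30.

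**Figure D4:**
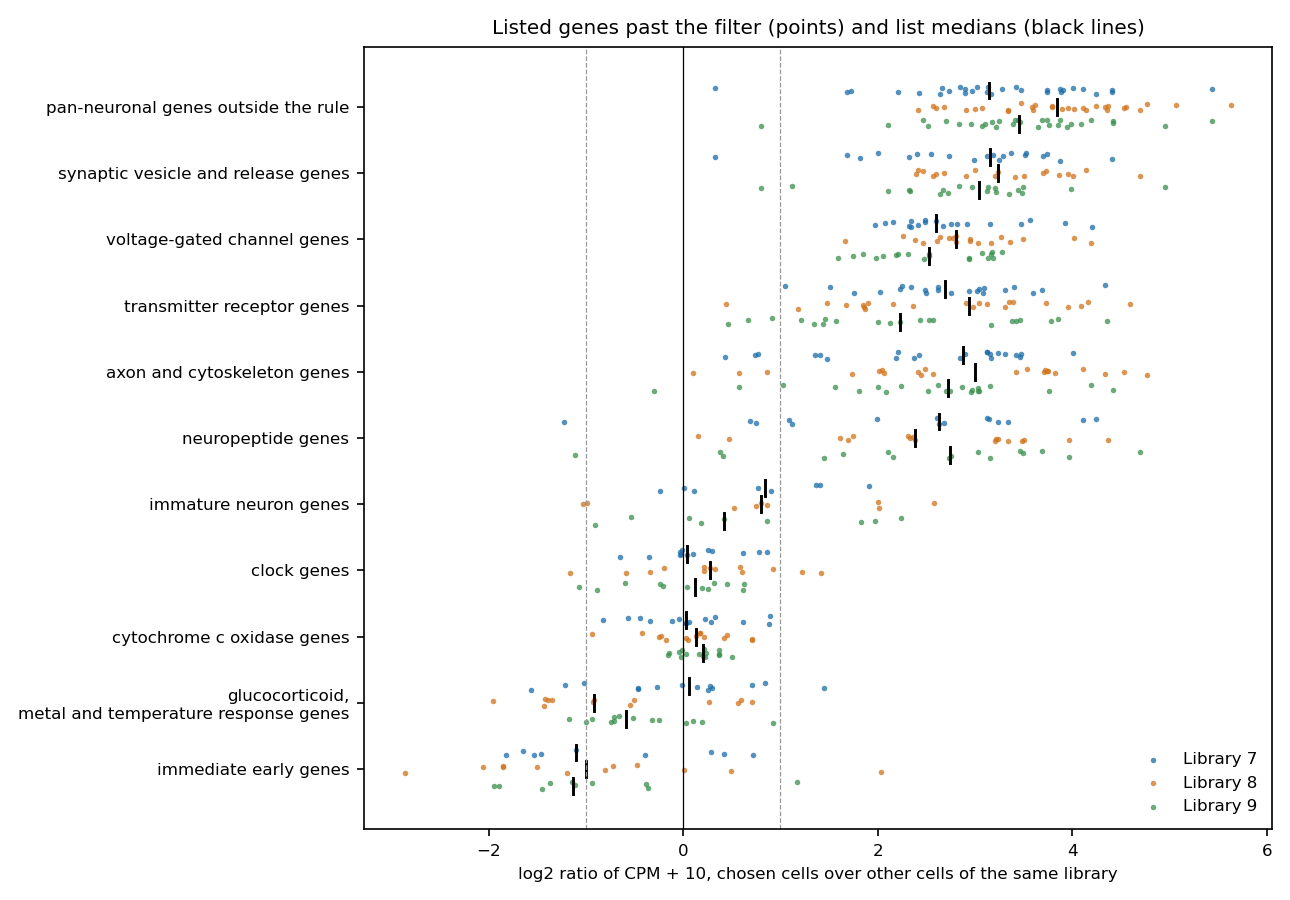
Log2 ratio of CPM + 10 in the chosen cells over the other cells of the same library, for each gene of 11 lists that passed the filter on low levels, in libraries 7, 8 and 9, with the list medians as black lines and the 2-fold limits as dashed lines. Most synaptic, channel and receptor genes lie to the right of the upper limit, and most clock and all cytochrome c oxidase genes lie between the limits.

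Neuropeptide genes were high in few cells. Over 31 genes of peptides and of their processing, 12, 15 and 13 of the 15, 17 and 16 that passed the filter were at least 2-fold higher. Processing genes were found widely. Pcsk1n, an inhibitor of prohormone convertase, was found in 60, 80 and 85 chosen cells and Scg2, a secretogranin of dense-core vesicles, in 45, 64 and 57. Sst, which encodes somatostatin, was found in 7, 15 and 14 cells, at 110, 360 and 360 CPM, with up to 9, 22 and 31 UMIs in a cell. Its level in library 7 was below the intervals of the other 2. Penk, which encodes the enkephalin precursor, was found in 8, 18 and 14 cells at 81.2, 223 and 150 CPM. Gal, which encodes galanin, gave 1, 10 and 48 UMIs in 1, 2 and 5 cells, and 19 of the 48 UMIs in library 9 came from a single cell. Crh, the corticotropin-releasing hormone gene, gave 11, 27 and 1 UMIs, with 10 of the 11 and 19 of the 27 in a single cell. Levels that rest on 1 to 5 cells describe those cells and not the library. Among peptides of hypothalamic neurons, Avp, Oxt and Pmch gave no UMI in the chosen cells of any of the 3 libraries, and Trh, Agrp and Hcrt gave 1 UMI each, in libraries 7, 8 and 9.

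Cholinergic and monoamine genes were found in few chosen cells. Slc5a7, the choline transporter of cholinergic terminals, gave 16 UMIs in library 7, all in 1 cell, 7 UMIs in 3 cells of library 8 and 25 UMIs in 4 cells of library 9, of which 21 were in 1 cell. Slc18a2, the vesicular monoamine transporter, gave 15 UMIs in 1 cell of library 7, 7 UMIs in 2 cells of library 8 and 4 UMIs in 2 cells of library 9. Tph2 or Slc6a4, which mark serotonergic neurons, were found in 3, 1 and 1 cells. Among the other cells, Slc5a7 or Slc18a3 was found in 0.166%, 0.0593% and 0.31%, Slc18a2 in 0.277%, 0.237% and 0.113%, and Tph2 or Slc6a4 in 0.083%, 0.178% and 0.0563%. In neuron-led cells Slc5a7 stood at 147, 10.9 and 155 CPM. Th or Dbh, the catecholamine enzymes, were found in 3, 2 and 3 cells, with at most 2 UMIs in a cell. Of 12 monoamine genes, 1, 2 and 1 of the 5, 6 and 5 that passed the filter were at least 2-fold higher. These shares, 20%, 33.3% and 20%, were near the 24.7%, 28.2% and 19.5% of all genes. At least 2-fold lower were 1, 2 and 2 of the same 5, 6 and 5 genes, beside 8.14%, 11.9% and 6.7% of all genes. The lower genes were Ddc in libraries 7 and 8, Hdc in libraries 8 and 9 and Maob in library 9. Except for Maob, they passed the filter only through their level in the other cells. The higher genes, Slc18a2 in libraries 7 and 8, Slc6a4 in library 8 and Slc6a2 in library 9, passed only through the chosen cells. No excess in either direction is read from these counts. Hdc, the histamine-making enzyme that mast cells also express, was at 76.4, 4.29 and 7.51 CPM in the chosen cells, where 11 of the 16 UMIs in library 7 came from 1 cell, at 0 in the neuron-led cells and at 37.1, 53.6 and 75.7 CPM in the others. Ache, which encodes acetylcholinesterase, was spread over 40, 29 and 20 chosen cells at 267, 176 and 90.1 CPM, against 18.7, 13.1 and 6.73 CPM in the others. Both cholinergic genes that passed the filter, Slc5a7 and Ache, were at least 2-fold higher in each library.

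The 3 libraries differed in the position genes of their chosen cells. En1 gave no UMI in the 116 cells of library 7, which by the same floor allows a level of up to 14.3 CPM, and was found in 17 cells of library 8 at 94.4 CPM (interval 59.2 to 143) and in 11 of library 9 at 82.6 CPM (51.7 to 125). Hoxb5 was found in 1, 3 and 14 cells at 4.78, 12.9 and 78.8 CPM, and Hoxa5 in 1, 0 and 9 cells. Of the 2, 18 and 12 cells with En1 or En2 in libraries 7, 8 and 9, 0, 9 and 7 carried Slc17a6 and 1, 1 and 3 an inhibitory gene. Of the 5, 6 and 25 cells with a Hox transcript in libraries 7, 8 and 9, 2, 4 and 2 carried Slc17a6 and 1, 0 and 8 an inhibitory gene. Pou4f1, a transcription factor of midbrain and sensory neurons, gave 2, 20 and 10 UMIs in 2, 4 and 4 cells. Of 28 hindbrain position genes in the table, 0 of 1, 2 of 3 and 6 of 7 that passed the filter were at least 2-fold higher in the chosen cells, beside 24.7%, 28.2% and 19.5% of all genes. The 2 and the 6 higher genes passed the filter only through their level in the chosen cells, which favours a higher call. No excess over all genes is read from these counts.

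Several genes of cerebellar granule cells were most frequent in library 9, and others were not. Neurod1, a transcription factor of granule cells and of other young excitatory neurons, was found in 1, 1 and 11 chosen cells and gave 1, 2 and 16 UMIs. Neurod1, Cbln3 or Gabra6 was found in 2 of 116, 1 of 146 and 18 of 159 cells (11.3%, interval 6.85 to 17.3%, in library 9), and in 0, 3 and 2 of the other cells. Other members had another order, with Fat2 at 0, 7 and 2 UMIs, Barhl1 at 1, 4 and 1 UMIs and Cbln1 at 52.5, 34.3 and 33.8 CPM. Zic1, a transcription factor of granule cells and of leptomeningeal and mural cells, was found in 8, 5 and 33 chosen cells, at 57.3, 30.0 and 176 CPM, and at 64.2, 65.4 and 77.7 CPM in the others. Of the 13 genes of this list, 1 of 4, 2 of 6 and 4 of 7 that passed the filter were at least 2-fold higher. In libraries 7 and 8 these shares (25% and 33.3%) were near the 24.7% and 28.2% of all genes. In library 9 the share was 57.1%, beside 19.5% of all genes. There Neurod1, Cbln1 and Chn2 passed the filter only through their level in the chosen cells, which favours a higher call. No excess is read from the 57.1%. In the chosen cells the granule cell genes in library 9 appeared beside choroid plexus markers at 17677 CPM, of which the highest single cell gave 3054 UMIs, and at 2021 CPM in the neuron-led cells. Choroid plexus markers stood at 76.4 and 51.5 CPM in the chosen cells of libraries 7 and 8. Zic1 stood at 198 CPM in the neuron-led cells of library 9 and Neurod1 at 80.6 CPM.

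Of 11 genes of immature neurons, 3 of 8, 3 of 9 and 3 of 9 that passed the filter were at least 2-fold higher, beside 24.7%, 28.2% and 19.5% of all genes. Of the 8 that passed in all 3 libraries, 2 were higher in each, Sox11 and the microtubule regulator Stmn1. The third in library 7, Cd24a, had log2 ratios of 1.37, -1.03 and -0.91, and its value in library 7 was -2.24 in neuron-led cells. Sox11 stood at 38.2, 81.5 and 60.0 CPM against 2.83, 5.30 and 7.81 CPM in the others, and Dcx, a microtubule protein of migrating neurons, was found in 3, 6 and 7 cells.

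Several immediate early genes were at least 2-fold lower in the chosen cells than in the other cells. Of 14 such genes, which are induced within minutes of stimulation, 5 of 9, 6 of 12 and 6 of 10 that passed the filter were at least 2-fold lower, beside 8.14%, 11.9% and 6.7% of all genes, and the median log2 ratios were -1.10, -0.999 and -1.13. The genes lower in all 3 libraries were Fos, Jun, Junb, Ier2 and Btg2. Fos stood at 62.1, 64.4 and 63.8 CPM in the chosen cells (intervals 33.1 to 106, 36.0 to 106 and 37.2 to 102) and at 216, 299 and 264 CPM in the others. In neuron-led cells it stood at 27.6, 54.7 and 49.6 CPM. Junb stood at 110, 38.6 and 78.8 CPM against 413, 342 and 220 CPM. Homer1, a postsynaptic scaffold, went the other way, with log2 ratios of 0.82, 2.04 and 1.17 from 3, 12 and 5 UMIs. Npas4, a neuron-specific member, gave 0, 3 and 0 UMIs, below the filter.

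Clock genes and cytochrome c oxidase genes stayed near the centre of the libraries. Of 14 clock genes, 0 of 13, 2 of 13 and 0 of 12 were at least 2-fold higher, beside 24.7%, 28.2% and 19.5% of all genes. At least 2-fold lower were 0, 1 and 1 of them, beside 8.14%, 11.9% and 6.7% of all genes. The 2 higher in library 8 were Clock, at 107 CPM against 34.0 CPM, and Cry2, at 60.1 CPM against 19.9 CPM. None of the 15 cytochrome c oxidase genes passed a 2-fold difference in either direction in any of the 3 libraries. Their mitochondrially encoded member mt-Co3 stood at 27252, 25291 and 27731 CPM in the chosen cells and at 14622, 18842 and 24706 CPM in the others. In the neuron-led cells it stood at 39133, 26952 and 31482 CPM, and in library 7 all 3 mitochondrially encoded members were then more than 2-fold higher, while the nuclear Cox7a2l was more than 2-fold lower in libraries 7 and 8. Mitochondrial transcripts were 14.6%, 12.2% and 13.2% of the UMIs of the chosen cells and 8.28%, 9.46% and 12.2% of those of the other cells.

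Among 14 genes of glucocorticoid, metal and temperature response, 3 of 14, 5 of 13 and 1 of 14 that passed the filter were at least 2-fold lower in the chosen cells, beside 8.14%, 11.9% and 6.7% of all genes, so that library 9 was near the share of all genes. In turn 1, 0 and 0 were at least 2-fold higher, beside 24.7%, 28.2% and 19.5%. Mt1, which encodes the zinc-binding protein metallothionein 1, stood at 2817, 2055 and 2158 CPM in the chosen cells. In neuron-led cells it stood at 524, 612 and 1004 CPM, against 2290, 5496 and 4876 CPM in the cells outside the rule, so the level in the chosen cells rested largely on cells led by other markers, and 277 of its 590 UMIs in library 7 came from 1 cell. The 4 long non-coding RNAs in the table comprised Meg3, Mirg and Miat, each at least 2-fold higher in all 3 libraries, and Malat1, with log2 ratios of -0.57, -0.67 and -0.11.

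Summed over the 3 libraries, the 82 cells with Slc17a6 alone and the 67 cells with an inhibitory gene alone held 157930 and 130955 UMIs, at median depths of 1558 and 1480 UMIs. Among 2795 genes with 20 or more UMIs over both classes, leaving out the 4 that defined them, 4.9% were at least 2-fold higher in the Slc17a6 cells and 3.26% in the inhibitory cells. The cells came in unequal numbers from the libraries, 16, 38 and 28 Slc17a6 cells and 24, 20 and 23 inhibitory cells, so a difference between libraries can enter this comparison. Without library 8, the genes higher in Slc17a6 cells fell from 137 to 75. Without library 9, those higher in inhibitory cells fell from 91 to 55.

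The leading gene on the Slc17a6 side was Cacna2d1, the calcium channel subunit that binds gabapentin. It gave 68 UMIs in 33 of the 82 cells, 431 CPM, and none in the 67 inhibitory cells, so it was at least 18.8-fold higher against a floor of 3 UMIs over the class. The difference was present in each library, with 7, 40 and 21 UMIs against 0, 0 and 0. Nrgn, the calmodulin-binding protein neurogranin, gave 107 UMIs in 25 cells against 2 UMIs, but no UMI in the Slc17a6 cells of library 7. Cck, which encodes cholecystokinin, gave 30 UMIs in 15 cells and none in the inhibitory cells, at least 8.29-fold higher, and was found in each library. Nrn1, the neurite growth factor neuritin, gave 29 UMIs in 19 cells and none on the other side, at least 8.02-fold higher. Pou4f1 gave 29 UMIs in 7 cells, Lhx9, a transcription factor of excitatory lineages, 21 UMIs in 14 cells and Slc17a7 26 UMIs in 10 cells, each against 0, and each had no UMI in the Slc17a6 cells of library 7. Tac1, which encodes substance P, gave 31 UMIs in 10 cells against 1 UMI, and Calb1, the calcium-binding protein calbindin, gave 49 UMIs in 12 cells against 3 UMIs. Crh gave 25 UMIs against 0, but in only 2 cells, both of library 8.

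On the inhibitory side, Nxph1, a neurexin ligand of inhibitory neurons, gave 24 UMIs in 17 of the 67 cells against 2 UMIs in 2 of the 82 Slc17a6 cells, which is 183 CPM (interval 117 to 273) against 12.7 CPM (1.53 to 45.7). The UMIs in libraries 7, 8 and 9 were 5, 11 and 8 against 0, 0 and 2. Parm1 gave 26 UMIs against 5, Gfra2, a receptor subunit for neurturin, 24 against 5, Appbp2 29 against 7, and 6430548M08Rik 23 against 6. Another 4 of the 10 leading genes were the hemoglobin genes Hba-a1, Hba-a2, Hbb-bt and Hbb-bs. Most of their UMIs came from library 9, where Hba-a1 gave 398 UMIs in inhibitory cells, 359 of them in 1 cell, against 28 in Slc17a6 cells. Hba-a1 gave 40 UMIs against 12 in library 7 and 14 against 31 in library 8. Without library 9 none of the 4 was past 2-fold, and the log2 ratio of Hba-a2 changed sign, to 0.22.

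**Figure D5:**
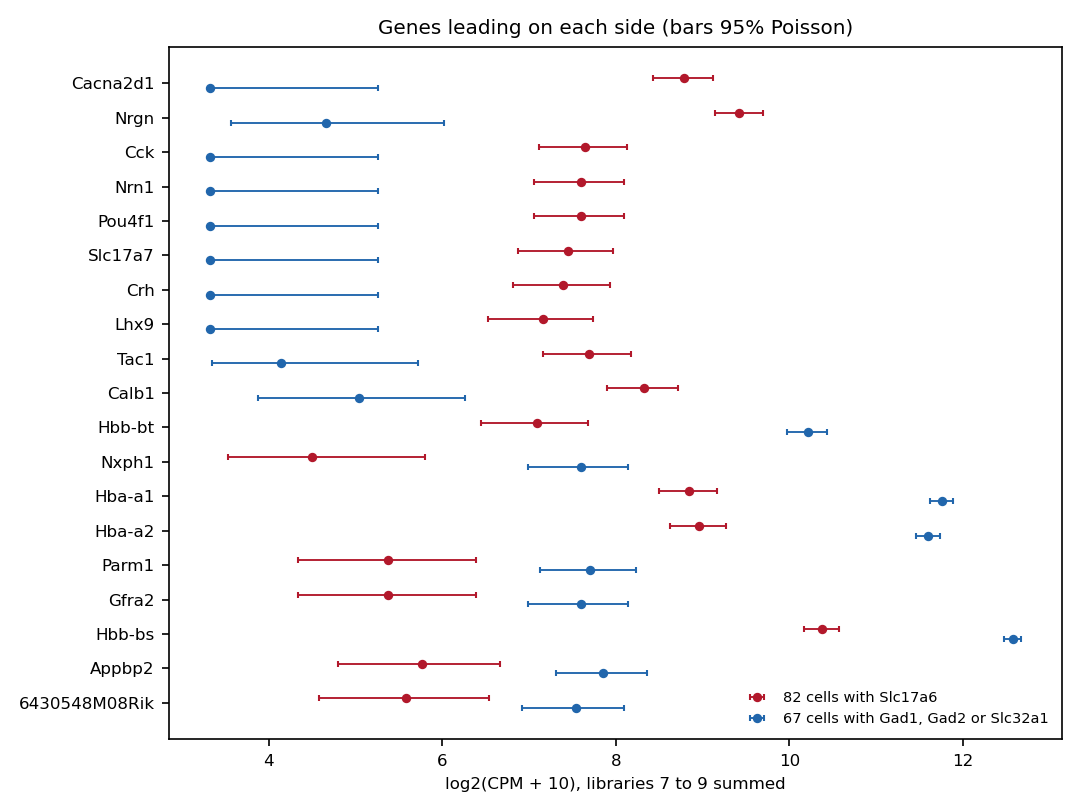
Levels of 10 leading genes on the Slc17a6 side and 9 on the inhibitory side, as log2(CPM + 10) with 95% Poisson bars, in the cells with Slc17a6 alone and in the cells with Gad1, Gad2 or Slc32a1 alone, summed over libraries 7, 8 and 9. Cacna2d1, Cck, Nrn1, Pou4f1, Slc17a7, Crh and Lhx9 gave no UMI in the inhibitory cells, and the 4 hemoglobin genes on the lower side rest largely on 1 cell.

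Peptides that were not confined to either class were Sst, with 73 UMIs in 11 Slc17a6 cells and 72 UMIs in 9 inhibitory cells, and Penk, with 35 UMIs in 10 cells and 37 UMIs in 15 cells. Pnoc, which encodes the nociceptin precursor, gave 2 UMIs in 2 Slc17a6 cells and 13 UMIs in 9 inhibitory cells. Adcyap1, which encodes the peptide PACAP, gave 10 UMIs in 8 Slc17a6 cells and none in the inhibitory cells. Scg2, which is common to both kinds of neuron, stood at 1266 CPM (interval 1097 to 1455) and 1130 CPM (955 to 1328).

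Levels in the chosen cells differed between the libraries for many neuronal genes. For 9.88% of the 9326 genes with 5 or more UMIs in at least 1 library, the intervals of 2 libraries did not overlap. Among the 216 listed genes past that filter it was 82 genes. In neuron-led cells it was 573 of 7368 genes (7.78%) and 70 of 203 listed genes, and 55 listed genes were common to both counts. The Poisson interval does not hold the spread between cells, and 1 library stood for each sample, so these are differences between libraries only. Thy1, a surface protein of projection neurons, stood at 1314, 623 and 391 CPM in the neuron-led cells of libraries 7, 8 and 9, and Chga, which encodes chromogranin A, at 542, 213 and 99.2 CPM. Ache and the vesicle protein gene Sv2a were likewise highest in library 7 and lowest in library 9, at 478, 191 and 124 CPM and at 983, 672 and 434 CPM. Other genes had another order. Sst stood at 184, 454 and 577 CPM in neuron-led cells, whereas Tubb3, the neuronal beta tubulin, was highest in library 8, at 312, 596 and 329 CPM. Across genes, the profiles of the chosen cells correlated less between libraries (Pearson r of log values 0.82, 0.84 and 0.85) than those of the other cells (0.96 to 0.98), which summed many more UMIs.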

How the data were processed

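Single-cell libraries were made with the 10x Genomics version 2 kit, and the authors counted with Cell Ranger 2.2.0 against GRCm38. The deposited table holds UMI counts of 18634 genes in 29571 cells of 9 libraries, with counts taken as deposited. The annotation release is not given in the sources used here, and neither is how the library codes map to the samples.

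Cells were chosen by the 4-gene rule. The members and the 19 gene lists were chosen with earlier results of these data known. UMI counts were summed per library over members and over the other cells and scaled to 1000000 (CPM), and log2 ratios used a pseudocount of 10 CPM. Intervals are exact Poisson (levels) and Clopper-Pearson (shares) at 95%. A gene was compared with 5 or more UMIs in members or an equal level in the other cells, so that genes high on either side could pass. Over the lists, 288 of 300 genes were in the table, and the other 12, among them Chat, Phox2a and Scn2a, were not analysed here. Named genes were the rule genes, the listed genes, the 25 highest ratios in library 7 (10 or more UMIs, in 10% or more of members) and the 10 highest ratios in each direction between Slc17a6 and inhibitory cells (20 or more UMIs). A few genes that this rule names are not reported here.

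Marker cells of another class were outside the chosen cells, with 3 or more UMIs of that class and more than of any other class or of the neuron markers. Doublets were kept; Scrublet scores (scanpy 1.11.5) served for an alternative. Analyses used Python 3.11.15, numpy 2.4.6, scipy 1.17.1 and pandas 2.3.3, and the ratio was tested on simulated data with known folds. Alternatives were another UMI threshold, deeper cells, neuron-led members, no high doublet scores, another pseudocount, no filter, other totals, a mean over cells and subtraction of free RNA.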

Additional observations from a re-analysis of the deposited data

How the results depend on the processing

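With 1 or more UMIs of the rule genes, members rose to 396, 388 and 432 in libraries 7, 8 and 9. Slc17a6 shares were then 6.57%, 10.6% and 8.10%, inhibitory shares 8.59%, 7.22% and 6.25%, genes at least 2-fold higher 827, 1285 and 683 and genes at least 2-fold lower 235, 285 and 75. Log2 ratios changed sign for Cartpt in library 7 (3.02) and for Hdc (0.29) and Cd24a (0.61) in library 8. With 3 or more UMIs, members were 76, 95 and 96, and Slc6a4 (-0.55), Slc18a2 (-0.69) and Lamp5 (-0.74) changed sign in library 8. Cells of 1000 or more UMIs were 64 in library 7 and 73 in library 8, where 34.2% had Slc17a6, and signs changed for Crh (-0.051) and Cartpt (0.28) in library 7 and for Slc6a4 (-0.32) and Slc18a2 (-0.52) in library 8. Without cells led by another class, library 9 kept 96 members, Slc17a6 shares were 33.9% and 29.2% in libraries 8 and 9, genes lower numbered 1196 and 1068 in libraries 7 and 9, and Cd24a in library 7 (-2.24) and Hba-a2 between transmitter classes (0.32) changed sign. Thinning gave Slc17a6 shares of 8.62%, 9.63% and 5.66%. Genes lower numbered 1094 in library 7 as a mean over cells, 990 and 896 in libraries 7 and 9 with free RNA subtracted, and 858 in library 9 with a pseudocount of 1 CPM. Of the genes past 2-fold, the share that was higher moved from 70.2% to 81.8% in library 8 and from 74.4% to 90.1% in library 9 with 1 or more UMIs, and from 75.2% to 62.1% in library 7 without cells led by another class. With no filter, the median log2 ratio of all genes was -0.01, -0.04 and -0.03.

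Between the transmitter classes, genes higher in Slc17a6 cells fell from 137 to 75 without library 8, genes higher in inhibitory cells from 91 to 55 without library 9, and Hba-a2 was at 0.22 without library 9. Leaving out a library, and leaving out cells led by another class in that comparison, were chosen after seeing the data. For these summary values, 112 alternatives stayed within the main value's interval or within 1.5 times its count, and 35 did not. Of 621 values of single genes, 395 moved with 1 or more UMIs, 343 with a pseudocount of 1 CPM and 309 without cells led by another class. Under the other settings that moved any, 4 to 132 moved, and all 621 stayed with no filter on low genes. The list totals of 123, 131 and 131 genes at least 2-fold higher stayed between 120 and 143 under the alternatives run for them. The cause of each change was not tested.

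No paired analysis was possible because each region and sleep group had 1 library, all numbered replicate 1. Depth limits single genes, since 0 UMIs in the members of library 7 allow up to 14.3 CPM by a floor of 3 counts.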
